A study of Homo sapiens with 34 samples.

Results

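CD43- cells sorted on day 9 of haematopoietic differentiation were compared with CD43- cells sorted on day 6, with 3 samples on each day, 6 of the 34 samples of the series. All 6 came from H1, an established human embryonic stem cell line. The cells had been aggregated to embryoid bodies, spread over collagen IV, exposed first to BMP4 and VEGF and then, from a change of medium before day 4, kept with VEGF and without any other growth factor or haematopoietic cytokine. They were separated by flow sorting on CD43, a sialoglycoprotein on the surface of blood cells that is encoded by SPN, and the day 6 and day 9 CD43+ cells, 3 samples each, are the blood cells of the same kind of culture. The replicates were described as independent biological replicates of 1 line, so p-values do not cover other stem cell lines. They rest on a spread between replicates that was pooled over all 33 replicated samples of the series, not on these 6 alone.

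Blood cells of the early embryo bud from endothelium that turns on blood genes, and CD43 appears on them as they leave the vessel wall. The CD43- fraction is therefore what stays behind: endothelial cells, which line vessels and carry VE-cadherin, and mesenchymal cells, which lay down collagen matrix, beside any cells that have not reached either state. In RNA from a sorted mixture, fewer cells of a type and less RNA per cell cannot be told apart.

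All 33 replicated samples hold the same set of values in another order, with a median of 197 and a highest value of 90700. The values therefore rank genes within a sample, and the sequencing depth is unknown. The error given is the spread between replicates, pooled over the 11 populations of the series that were fitted. Changes are differences of log2(value + 1), called log2 changes here, with their standard error (SE). They understate the change of low genes. A gene was called when limma, fitted to all 33 replicated samples of the series, gave a p-value below 0.05 after Benjamini-Hochberg adjustment and the change was above 4-fold. RNA was sequenced at 2 providers, the sources used here do not say which samples went to which, and a difference between providers and one between days cannot be told apart where they coincide.

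The marker of the sort separated the fractions. SPN was 28, 19 and 49 in the day 6 CD43- cells and 18, 32 and 19 on day 9, against 5979 to 9460 in the CD43+ cells of both days. PTPRC, which encodes the pan-leucocyte antigen CD45, was between 0 and 4 in all 6 CD43- samples. CDH5, which encodes VE-cadherin, ranged from 5198 to 25876, and PDGFRB, the mesenchymal receptor for platelet-derived growth factor B, from 1910 to 4960.

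The replicates of a day were not alike, and 2 samples stood apart. The summed value of the 30 endothelial identity genes was 322799, 170179 and 68653 in day 6 replicates 1, 2 and 3, and 180713, 100362 and 130363 on day 9. Day 6 replicate 3 thus had the lowest endothelial level of the 6 samples. Day 9 replicate 2 had the highest summed value of the 26 glycolysis and hypoxia genes, 242111 against 142831 and 152784 in the other two day 9 samples. Over all genes, the root mean square log2 difference was 0.621 to 0.909 between samples of day 6, 0.600 to 0.823 between samples of day 9 and 0.801 to 1.04 between the days. The ranges overlapped, and day 6 replicate 3 and day 9 replicate 2 had the largest distances within their days.

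Of 19788 genes tested, 347 (1.75%) were called between the days, 217 higher on day 9 (1.10%) and 130 lower (0.657%). In a fit of the 6 CD43- samples alone on the same genes, 12 were called. Without day 6 replicate 3 and day 9 replicate 2 together, 292 were called, 174 higher and 118 lower, and 222 of these were among the 347. The values of the days did not overlap in 201 of the 217 genes called higher and 121 of the 130 called lower, against 19.7% of all genes tested, and the calls rest on the same values. The median log2 change over all genes was -0.03 and the median size of a change 0.25, against 0.39 in CD43+ cells between the same days, 0.55 in CD43- cells from day 12 to day 16, 0.55 from unsorted day 4 cells to the day 6 CD43- cells and 0.46 from day 9 to day 12 CD43- cells. The steps into day 6 and out of day 9 share samples with this one. The day 16 cells, named CD43- cells here, were sorted as CD43-CD45- cells. The step from day 12 to day 16 thus also holds a change of sort. Most called genes were low: the median of the mean values of the genes called higher was 8.67 on day 6 and 83.3 on day 9, and of the genes called lower 39.3 and 5.33. In the later CD43- cells, the same genes called higher had medians of 135 on day 12 and 104 on day 16, and those called lower 4 and 6.67.

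**Figure D1:**
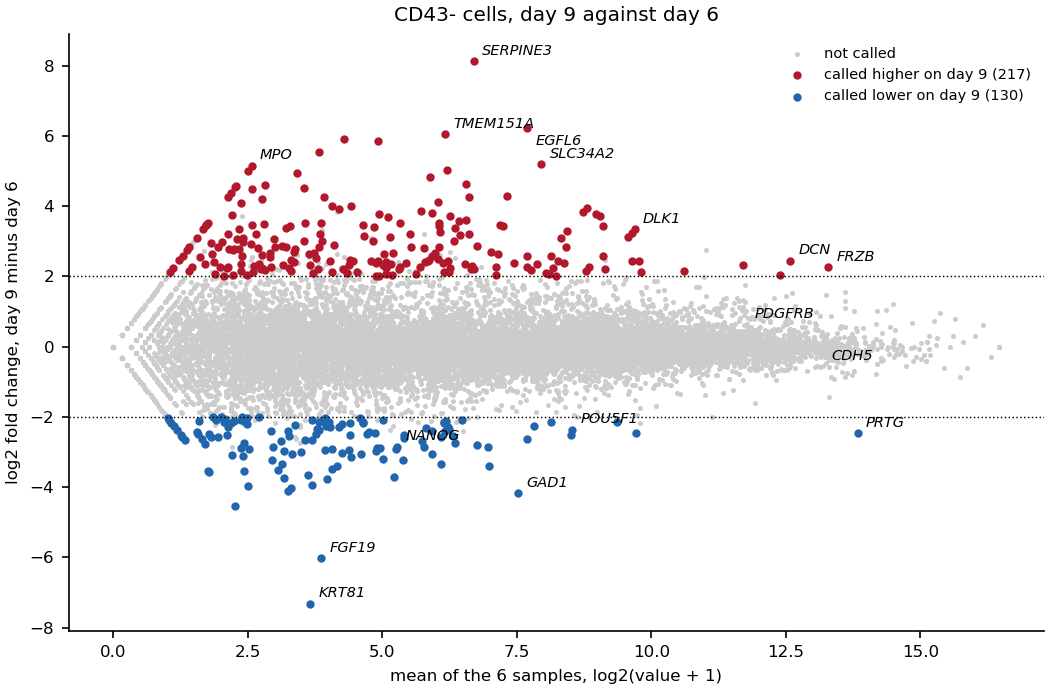
Each point is a gene, with the mean log2(value + 1) of the 6 CD43- samples on the x axis and the log2 change from day 6 to day 9 on the y axis; dotted lines mark a 4-fold change. The 217 genes called higher (red) and 130 called lower (blue) lie mostly at low values, while PRTG, FRZB and DCN stand among the abundant genes.

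Genes were ranked by the size of the log2 change among called genes with a mean of at least 100 on the higher day, values that do not overlap between the days and a name that is not that of a clone, and the first 15 in each direction were taken. SERPINE3, a member of the serpin family of protease inhibitors (chr13:51335773-51364735, GRCh38), was 5, 4 and 7 on day 6 and 1821, 4539 and 643 on day 9, a log2 change of 8.13 (SE 0.58, limma adjusted p = 9.16e-10). EGFL6, a secreted matrix protein with EGF-like repeats (chrX:13569605-13633575), was 28, 25 and 17 and then 1330, 1724 and 2485, a log2 change of 6.23 (SE 0.43, limma adjusted p = 7.04e-10). TMEM151A, which encodes a membrane protein, went from 10, 6 and 8 to 546, 1138 and 326. For these genes every day 9 sample lay far above every day 6 sample.

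The other 12 of the 15 largest rises had log2 changes of 3.99 to 5.91. Among them were PTGDS, the synthase of prostaglandin D2, with 2, 2 and 6 on day 6 and 224, 487 and 108 on day 9, and AGTR1, the type 1 receptor for angiotensin II, with 2, 0 and 2 and then 113, 180 and 42. The sodium-phosphate cotransporter SLC34A2 was 37, 24 and 72 on day 6 and 1535, 3726 and 594 on day 9. The sodium-coupled monocarboxylate transporter SLC5A12 was 28, 26 and 60 and then 1122, 1509 and 208, and the carnosine synthase CARNS1 18, 4 and 70 and then 391, 965 and 276. SECTM1, CYP2W1 (a cytochrome P450), KRT24 (a keratin), LRRN3, SPHKAP and TMEM229B completed the group with LYVE1, which is described with the endothelial genes. Day 9 replicate 2 held the highest day 9 value of 13 of the 15 genes, and replicate 3 the lowest of 13. All 15 were called without day 6 replicate 3 and day 9 replicate 2.

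**Figure D2:**
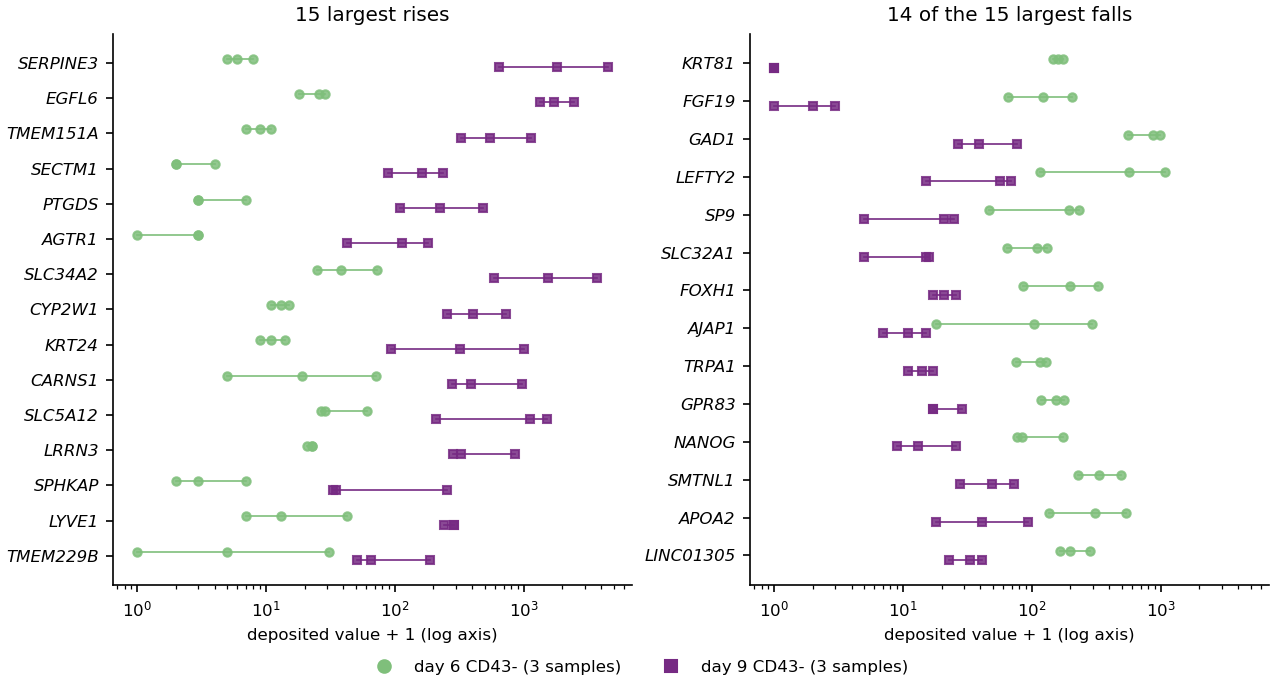
Deposited value + 1 (log axis) of the 15 largest rises (left) and 14 of the 15 largest falls (right) in the 3 day 6 (green circles) and 3 day 9 (purple squares) CD43- samples, with a line over the range of each day. Genes were selected for days that do not overlap, and within day 9 the rising genes spread widely, SERPINE3 from 643 to 4539.

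Among the falls, KRT81, a hair keratin (chr12:52285913-52291534), was 146, 158 and 174 on day 6 and listed at 0 in all 3 day 9 samples (limma adjusted p = 4.57e-09). It was 202, 212 and 176 in the day 6 CD43+ cells and 6, 4 and 4 on day 9, 2 in each of the 3 day 4 samples, and between 0 and 6 in the CD43- samples of days 12 and 16, so that only day 6 stood high in these samples; the part of the sequencing provider in this was not tested. Because KRT81 has close paralogs, its reads may have been split or shared in the counting. FGF19, an endocrine fibroblast growth factor, was 64, 122 and 204 on day 6 and 1, 2 and 0 on day 9, a log2 change of -6.02 (SE 0.75, limma adjusted p = 8.89e-06). In day 6 CD43+ cells FGF19 was 0, 0 and 3.

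GAD1, the glutamate decarboxylase that makes GABA, was 998, 870 and 554 on day 6 and 76, 26 and 38 on day 9, a log2 change of -4.18 (SE 0.50, limma adjusted p = 5.12e-06), and SLC32A1, the vesicular GABA transporter, 109, 63 and 130 and then 15, 14 and 4. GAD1 was higher in CD43+ cells, 4292 to 5040 on day 6 and 2808 to 3190 on day 9. SP9, AJAP1, TRPA1 (a cation channel), GPR83, SMTNL1, APOA2 (an apolipoprotein) and the long non-coding RNA LINC01305 were others of the 15, with log2 changes of -3.22 to -2.74. Of the 14 named falls 11 were called without day 6 replicate 3 and day 9 replicate 2. Outside the 15, PRTG, which encodes the neural and mesodermal adhesion protein protogenin, was the most abundant gene called: 29030, 29030 and 48061 on day 6 and 7637, 7494 and 4196 on day 9, a log2 change of -2.47 (SE 0.37, limma adjusted p = 7.84e-05). In the CD43+ cells it went from 15874 to 37190 on day 6 to between 2028 and 2777 on day 9.

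Counts for gene lists stand against 1.10% of all genes called higher and 0.657% called lower. Of the 32 gene lists examined, the pluripotency list held the most genes called lower. Of 20 tested, 6 were called lower, against 0.657% of all genes, and none higher, and the median log2 change was -1.15 against -0.03 over all genes. Of the 20, 2 had a positive log2 change, up to 2.17, and neither was called. NANOG, a core factor of the pluripotent state, was 83, 174 and 76 on day 6 and 25, 8 and 12 on day 9, a log2 change of -2.85 (SE 0.69, limma adjusted p = 0.0122). POU5F1, which encodes OCT4, was 712, 1328 and 618 and then 267, 63 and 251, a log2 change of -2.36 (SE 0.55, limma adjusted p = 0.00862). Both genes have related pseudogenes, and reads may have been shared with them. In CD43+ cells neither was high on day 6: NANOG was 0, 4 and 6 and POU5F1 40, 47 and 32.

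ZSCAN10 was 104, 96 and 190 and then 28, 20 and 25, UTF1 73, 58 and 20 and then 12, 4 and 14, and PRDM14 30, 49 and 18 and then 10, 4 and 6. None of these pluripotency factors overlapped between the days, and their calls rest on the same values. Of the 20 genes of the list, 11 were lower on day 9 without overlap and 1 higher, against 19.7% of all genes in either direction. The RNA-binding protein LIN28A (4508, 7489 and 9242, then 2328, 2049 and 2338), the DNA methyltransferase DNMT3B and the factor SALL4 were lower at limma adjusted p = 0.0146, 0.0013 and 0.000646 with changes under 4-fold. The count rested on single samples: without day 6 replicate 2, which had the highest POU5F1 value, 1 of the 20 was called lower, and without day 9 replicate 2, which had the lowest, 2, with list medians of -0.97 and -1.06. Without day 9 replicate 2 and day 6 replicate 3 it was 2, with a median of -1.16. It was 2 with a pseudocount of 0.1, 3 with one of 10, and 0 of 17 in a fit of the 6 CD43- samples alone. The summed value of the list in CD43- cells was 14186 to 21252 on day 6 and 8316 to 9002 on day 9. In CD43+ cells the sum was 19159 to 22671 and then 11901 to 12642, also lower without overlap, and the list median was -0.26.

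Nodal is the signal that patterns the primitive streak. LEFTY2, a secreted Nodal inhibitor, was 570, 1081 and 114 and then 56, 14 and 68 (log2 change -3.41, SE 0.81, limma adjusted p = 0.00993), and FOXH1, the SMAD partner that Nodal uses, 84, 196 and 328 and then 16, 20 and 25 (limma adjusted p = 0.0445). LEFTY1 (57, 80 and 4, then 3, 9 and 1) and NODAL (30, 38 and 18, then 20, 12 and 6), named because their relatives changed, were not called (limma adjusted p = 0.0535 and 0.112). Of 17 primitive streak and early mesoderm genes, 2 were called lower, against 0.657% of all genes, with a list median of -1.01. These were T, the streak factor brachyury (75, 65 and 16, then 6, 1 and 2), and CDX4 (6, 8 and 2, then listed at 0). Without day 9 replicate 1 the count called lower was 4. With a pseudocount of 10 it was 1, and the list median was -0.37. In a fit of the 24 sorted samples it was 1 of 11 genes tested, and in a fit of the 6 CD43- samples alone 0 of 9. WNT8A, a streak WNT ligand, was 16, 12 and 6 and then listed at 0.

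The promoter of NANOG is shown because it holds the composite element that OCT4 and SOX2 bind, here searched on both strands as TTTGCAT, any base and ACAA. The sequences given here are RefSeq windows of GRCh38.p14, from 250 bases before a start to 50 after it, with the motif in capitals. This is chr12:7789152-7789451 on the plus strand.
NANOG: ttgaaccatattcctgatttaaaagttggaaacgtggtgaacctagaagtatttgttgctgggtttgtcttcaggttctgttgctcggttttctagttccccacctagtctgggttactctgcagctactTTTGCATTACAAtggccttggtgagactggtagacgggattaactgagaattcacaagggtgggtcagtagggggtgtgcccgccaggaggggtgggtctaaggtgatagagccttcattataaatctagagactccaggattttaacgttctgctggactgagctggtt
The element was in 11 of 35116 windows (0.0313%), and among the 13 pluripotency genes with a window only in that of NANOG.

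Of 30 endothelial identity genes tested, none was called (the median log2 change was -0.25), and of 16 arterial and venous genes none (median -0.35). The medians turned with single samples, to 0.30 and 0.05 without day 6 replicate 1 and to -0.69 and -0.84 without day 6 replicate 3. CDH5 was 25876, 10844 and 5254 on day 6 and 12854, 5198 and 7038 on day 9 (limma adjusted p = 0.437), and without day 6 replicate 3 its log2 change was -1.11 (limma adjusted p = 0.0467). KDR, the VEGF receptor, was 48030, 48030 and 17338 and then 37166, 25836 and 22812 (limma adjusted p = 0.715). For both genes, no sample lay above day 6 replicate 1, and day 6 replicate 3 at or near the lowest, so the day 6 samples bracketed nearly all of day 9.

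PECAM1, CD34 and MCAM, the genes for the endothelial surface proteins CD31, CD34 and CD146, also overlapped, with log2 changes of 0.29, -0.04 and 0.14 (SE 0.34, 0.34 and 0.45), and these directions turned when single samples were left out. Without a fold threshold, 2 of the 30 endothelial genes were lower at a limma adjusted p below 0.05, against 578 of all 19788 genes. These were ETV2, the early haemangioblast factor (180, 134 and 208, then 46, 70 and 84, limma adjusted p = 0.0476), and SOX7 (3410, 2312 and 1432, then 1531, 644 and 738, limma adjusted p = 0.0265). APLNR, the apelin receptor of early mesoderm and veins, was 3301, 3819 and 7032 and then 974, 1732 and 820, lower by just under 4-fold (SE of the log2 change 0.48, limma adjusted p = 0.0118). MMRN1, which encodes multimerin of platelets and endothelium, was 1931, 1426 and 374 and then 8510, 1578 and 4720, and was not called (limma adjusted p = 0.0522). Without day 6 replicate 1 or day 9 replicate 2, 1 endothelial identity gene was called higher, and without day 6 replicate 1, day 6 replicate 2 or day 9 replicate 2, 1 arterial or venous gene lower.

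LYVE1, a hyaluronan receptor of lymphatic and yolk sac endothelium and of some macrophages, was the called gene of 8 lymphatic genes, at 42, 12 and 6 on day 6 and 286, 288 and 240 on day 9 (log2 change 4.11, SE 0.73, limma adjusted p = 0.000688). It stood at 85, 60 and 130 in day 9 CD43+ cells. Of 14 haemogenic transcription factors, GFI1, a repressor used as blood cells leave endothelium, was called lower (48, 40 and 22, then 8, 3 and 10), with a list median of -0.62; without day 9 replicate 2 none was. In CD43+ cells GFI1 was 3047 to 3346 on day 6.

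Of 40 collagens tested, 3 were called higher and none lower (median log2 change 0.29), and of 37 matrix glycoproteins and proteoglycans 4 were called higher and 1 lower (median 0.56), against 1.10% higher and 0.657% lower of all genes. In a fit of the 6 CD43- samples alone none of 38 collagens and of 36 of the others was called. COL8A2, a short-chain collagen, was 132, 84 and 223 and then 1671, 3754 and 1007 (log2 change 3.76, SE 0.42, limma adjusted p = 2.63e-06). The epithelial transmembrane collagen COL17A1 was 10, 12 and 6 and then 122, 30 and 135, and COL21A1 690, 432 and 1370 and then 1688, 10084 and 2109. The days did not overlap for these collagens, and their calls rest on the same values. Of the 40 collagens, 9 were higher on day 9 without overlap and 1 lower, against 19.7% of all genes in either direction. For COL21A1 day 9 replicate 2 stood far above the other day 9 samples. Without day 9 replicate 1, 5 collagens were called.

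EFEMP1, a fibulin of the extracellular matrix, was 98, 225 and 64 and then 3139, 476 and 3544 (log2 change 3.94, SE 0.62, limma adjusted p = 0.000178). DCN, the proteoglycan decorin, was 2177, 1624 and 5043 and then 11508, 18772 and 13324, MGP, the matrix Gla protein, 16, 8 and 10 and then 38, 247 and 116, and FBLN5, another fibulin, 80, 146 and 202 and then 492, 706 and 520. Of the 37 genes of this list, 9 were higher on day 9 without overlap and 2 lower, against 19.7% of all genes in either direction. The 4 called higher were higher in every day 9 sample than in any day 6 sample, and their calls rest on the same values. TNXB, the gene for tenascin-X, went the other way, from 3136, 1518 and 554 to 380, 385 and 206, and so did the matrix protease MMP10, from 58, 84 and 208 to 14, 28 and 12, the 1 called of 31 proteases and inhibitors (median 0.20). Without day 6 replicate 1 or day 9 replicate 3 no matrix glycoprotein gene was called lower, and without day 6 replicate 3 no protease gene.

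None of 34 mesenchymal transcription factors was called (median log2 change 0.38), with TBX2, the member of largest change, at 334, 490 and 289 and then 1444, 496 and 2046 (limma adjusted p = 0.18). Of 20 smooth muscle and pericyte genes, DES, the intermediate filament desmin, rose from 89, 120 and 99 to 304, 634 and 519 (log2 change 2.18, SE 0.31, limma adjusted p = 5.36e-05; list median 0.47), and without day 9 replicate 2, its highest sample, no gene of this list was called. PDGFRB was 1910, 3136 and 3610 and then 3652, 4608 and 4960, without overlap and with a change under 4-fold (log2 change 0.65, SE 0.19, limma adjusted p = 0.0332). None of 17 cardiac genes was called (median 0.11). Their summed value was 12169 to 26258 on day 6 and 8088 to 11337 on day 9, lower without overlap. TNNI3, cardiac troponin I, was 6, 16 and 27 and then 2, 12 and 2.

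Signalling genes moved singly. Of 49 WNT pathway genes, 2 secreted WNT inhibitors were called higher and WNT8A lower (list median 0.09), against 1.10% higher and 0.657% lower of all genes. The inhibitors were FRZB (3304, 3063 and 9499, then 22842, 29026 and 15868) and DKK1 (248, 344 and 107, then 1536, 346 and 1896). FRZB was the most abundant gene called higher, with a log2 change of 2.26 (SE 0.40, limma adjusted p = 0.000657), and for DKK1 day 9 replicate 2 stood at the top of the day 6 range. Without day 6 replicate 3 or day 9 replicate 3, 1 WNT pathway gene was called higher, and 3 were called lower without day 6 replicate 1. Of 49 BMP and TGF-beta genes none was called (median 0.32); INHBA, an activin subunit, was 28, 54 and 10 and then 348, 22 and 469. Without day 9 replicate 2, 2 of these genes were called higher, and without day 6 replicate 2, 1. Of 34 FGF, PDGF and IGF genes none was called (median 0.04), and PDGFC, a PDGF ligand with a change under 4-fold, was 90, 160 and 85 and then 466, 142 and 645; 1 gene of the list was called higher without day 6 replicate 2 or day 9 replicate 2.

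Of 15 retinoid genes, the retinoic acid hydroxylase CYP26A1 (24, 47 and 50, then 2, 1 and 1) and the retinaldehyde dehydrogenase ALDH1A1 (115, 144 and 207, then 65, 16 and 36) were called lower (median 0.09), against 0.657% of all genes. CYP26A1 had a log2 change of -4.11 (SE 0.61, limma adjusted p = 8.08e-05). In the retinoid list 1 gene was called lower without day 6 replicate 3, and 1 lower and 2 higher without day 9 replicate 2. Of 35 guidance cues, SEMA3E, a semaphorin, rose from 18, 14 and 12 to 49, 172 and 44 (median 0.05), and without day 9 replicate 2 none was called. Of 38 HOX genes, HOXC12 (0, 4 and 0, then 16, 2 and 30) was called higher, against 1.10% of all genes (list median -0.02). HOXD10 (53, 110 and 0, then 213, 60 and 350) was not called, and both genes overlapped between the days. Leaving out single samples gave 0 to 3 HOX genes called higher, 3 without day 9 replicate 2.

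Of 31 cytokines and chemokines, 4 were called higher (median 0.41), against 1.10% of all genes. LIF, an interleukin-6 family cytokine, went from 18, 20 and 37 to 92, 115 and 222, and CXCL14 from 178, 426 and 150 to 1544, 570 and 2796. CXCL1, a neutrophil attractant, went from 28, 42 and 16 to 346, 68 and 160, and IL33 from 2, 0 and 0 to 38, 1 and 8. The days overlapped for IL33 and not for the other three. Without day 6 replicate 3 or day 9 replicate 1, 2 of the 31 were called higher, and without day 9 replicate 3, 1.

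Of 25 interferon response genes tested, 4 were called higher, against 1.10% of all genes, with a list median of 0.47. MX1, an antiviral GTPase, was 14, 20 and 10 and then 193, 186 and 75 (log2 change 3.21, SE 0.45, limma adjusted p = 3.94e-05). IFI6 was 154, 108 and 138 and then 707, 857 and 396 (log2 change 2.23, SE 0.33, limma adjusted p = 7.52e-05). IFI44L was listed at 0 in all 3 day 6 samples and was 71, 13 and 12 on day 9, and its neighbour IFI44 was listed at 0 and then 18, 7 and 1. The 4 genes did not overlap between the days, and their calls rest on the same values. Of the 25 genes, 12 were higher on day 9 without overlap and 1 lower, against 19.7% of all genes in either direction. Without a fold threshold 9 of the 25 were higher and 1 lower, against 737 and 578 of all 19788 genes. Among the 9 were IRF9, a subunit of the interferon-activated transcription factor (226, 198 and 215, then 382, 410 and 316), and the oligoadenylate synthetases OAS3 and OAS1. The 1 lower was MX2 (50, 72 and 62, then 30, 24 and 40). Without day 9 replicate 2, 2 of the 25 were called, without day 9 replicate 3, 7, and without day 9 replicate 2 and day 6 replicate 3, 3. In a fit of the 6 CD43- samples alone none of 22 was called. MX1 also rose in CD43+ cells, from 4, 6 and 4 to 427, 418 and 414, and there the list median was 1.83.

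The promoters of these 4 genes, picked because they were called higher, are printed here. The core of the interferon-stimulated response element, GAAA, any 2 bases and GAAA on either strand, is in capitals. For MX1, with 3 windows, the first of the 2 that hold the motif is shown, and for IFI44 the first of 2. The windows are chr1:27672143-27672442 (minus strand), chr21:41420308-41420607, chr1:78649539-78649838 and chr1:78620198-78620497 (plus strand).
IFI6: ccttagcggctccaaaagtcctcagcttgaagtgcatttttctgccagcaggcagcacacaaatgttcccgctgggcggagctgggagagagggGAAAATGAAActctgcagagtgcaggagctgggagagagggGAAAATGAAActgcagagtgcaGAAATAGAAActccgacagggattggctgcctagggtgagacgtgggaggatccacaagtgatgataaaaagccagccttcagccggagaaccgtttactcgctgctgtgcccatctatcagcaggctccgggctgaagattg
MX1: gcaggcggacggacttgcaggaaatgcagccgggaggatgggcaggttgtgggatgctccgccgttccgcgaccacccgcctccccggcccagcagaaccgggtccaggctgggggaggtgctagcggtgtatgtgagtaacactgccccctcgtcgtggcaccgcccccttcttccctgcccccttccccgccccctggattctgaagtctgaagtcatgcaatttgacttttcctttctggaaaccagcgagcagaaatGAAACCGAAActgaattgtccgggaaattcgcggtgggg
IFI44: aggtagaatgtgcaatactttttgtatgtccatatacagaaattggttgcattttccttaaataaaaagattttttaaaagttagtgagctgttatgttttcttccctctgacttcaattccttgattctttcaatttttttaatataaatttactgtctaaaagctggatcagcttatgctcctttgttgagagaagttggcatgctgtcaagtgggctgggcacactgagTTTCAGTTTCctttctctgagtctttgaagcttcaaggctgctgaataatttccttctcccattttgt
IFI44L: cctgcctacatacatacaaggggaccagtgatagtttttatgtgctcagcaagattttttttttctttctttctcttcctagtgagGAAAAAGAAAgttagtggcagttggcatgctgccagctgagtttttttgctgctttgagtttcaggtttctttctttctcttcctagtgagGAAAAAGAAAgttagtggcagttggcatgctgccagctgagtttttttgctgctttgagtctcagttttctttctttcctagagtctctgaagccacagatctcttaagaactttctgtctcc
The motif was in 1255 of 35116 windows (3.57%) and, per gene, in 14 of the 17 interferon response genes with a window and in 1195 of 27305 genes (4.38%). It was in 14 of the 120 genes called higher that have a window (11.7%) and in 5 of the 77 called lower (6.49%). These shares are a description of the letters in the windows.

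Proliferation and stress genes were not called by the 4-fold rule. Of 37 cell cycle genes none was called, 1 had a positive log2 change against 44.5% of all genes, and the median was -0.33; CENPE, a kinetochore motor, was 1072, 1682 and 2042 and then 954, 650 and 1196 (limma adjusted p = 0.187). In CD43+ cells the median of this list was 0.66. In CD43- cells it was -0.16 without day 9 replicate 2, -0.56 without day 9 replicate 3 and -0.055 without day 9 replicate 2 and day 6 replicate 3. Of 10 G1 cyclins and CDK inhibitors none was called (median 0.57, and 0.081 without day 6 replicate 3), with the CDK inhibitor CDKN1C at 1485, 1633 and 2912 and then 4422, 8264 and 3343 (log2 change 1.37, SE 0.25, limma adjusted p = 0.000761). CDKN1A, which encodes p21 and is a p53 target, was 1314, 1187 and 781 and then 2865, 2040 and 2018 (limma adjusted p = 0.0352), and of the 18 p53 targets none was called (median 0.19).

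The 19 immediate early genes had a median log2 change of 0.67, and of 0.73 in CD43+ cells between the same days. In CD43- cells 18 of the 19 had a positive change, against 44.5% of all genes, and none was called. Among them JUN (8678, 7330 and 7907, then 22830, 22830 and 14009), the phosphatase gene DUSP1 (2778, 2984 and 3470, then 7603, 12784 and 5231), JUNB, KLF4 and MYC were higher at an adjusted p below 0.05 with changes under 4-fold. The summed value of the list was 77826 to 93907 on day 6 and 113097 to 192385 on day 9, highest in day 9 replicate 2. Of 26 glycolysis and hypoxia genes (median 0.24; PFKFB4 at 281, 296 and 675, then 714, 1418 and 542) and of 20 sterol synthesis genes (median 0.21; SC5D at 3304, 3402 and 4332, then 2238, 2330 and 2258) none was called.

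Transcripts of blood cells were present at low values and several were higher on day 9. Of 23 haemoglobin and erythroid genes, 3 were called higher and 1 lower (median 0.32), against 1.10% and 0.657% of all genes. HBE1, embryonic epsilon globin, was 32, 26 and 36 and then 238, 164 and 130, against 90700 in every CD43+ sample of both days. As 90700 is the highest value that any sample holds, a change of HBE1 between the days in CD43+ cells cannot be read from it. HBA2, an alpha globin whose coding sequence is shared with HBA1, and SLC4A1, the red cell anion exchanger, were listed at 0 on day 6 and were 36, 30 and 10 and 5, 14 and 6 on day 9. HBZ, embryonic zeta globin, was 32, 22 and 26 and then 244, 144 and 131, without overlap and not called (limma adjusted p = 0.0618). KLF1, the erythroid transcription factor, fell from 20, 34 and 44 to 6, 8 and 2. Of the erythroid genes 1 was called higher without day 6 replicate 3 and day 9 replicate 2.

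MPO, the peroxidase of neutrophil granules, was listed at 0 on day 6 and was 32, 46 and 28 on day 9, the 1 called of 26 myeloid and macrophage genes (median 0.00); in CD43+ cells it was 30, 14 and 10 and then 29015, 20412 and 20412. SELP, P-selectin of platelets and endothelium, was the 1 called of 16 megakaryocyte genes (34, 50 and 8, then 636, 30 and 205; median 0.75), and its days overlapped; without day 6 replicate 1, day 6 replicate 3, day 9 replicate 1 or day 9 replicate 3 no gene of the list was called. PLEK, a platelet and leucocyte protein, was 2, 2 and 0 and then 15, 12 and 10 (limma adjusted p = 0.115). The summed erythroid list was 1584 to 2280 on day 6 and 2443 to 4837 on day 9 in CD43- cells, against 150497 to 183156 and 219771 to 372337 in CD43+ cells, the myeloid list 1097 to 4743 and 1261 to 2692 against 7653 to 9322 and 40154 to 47686, and the megakaryocyte list 6617 to 10358 and 9409 to 37801 against 15551 to 21597 and 151004 to 158559. THBS1, which endothelial and mesenchymal cells also make, gave most of the megakaryocyte sum in CD43- cells, at 6360, 9888 and 6244 and then 29004, 8966 and 37170. In each of these lists 0 to 6 members were at 0 in all 3 CD43- samples of day 6 or of day 9. The part of CD43+ cells carried over by the sort in these values was not tested.

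Markers of other tissues were looked for in the same way. Of 26 endoderm and yolk sac genes, APOA2 was called lower (136, 310 and 540, then 92, 40 and 17; limma adjusted p = 0.0124) and the list median was -0.94, with a summed value of 13649 to 25219 and then 11405 to 19274. None was called lower without day 6 replicate 3 or day 9 replicate 3, and 6 were without day 9 replicate 1. Of 14 neural and neural crest genes, STMN2, a stathmin of growing neurites, was called higher (220, 102 and 136, then 1210, 6592 and 897) and SOX10 lower (5, 6 and 10, then 1, 2 and 0), with a median of -0.35; of the 6 fits that left out 1 sample, SOX10 was called only in that without day 9 replicate 2. Of 19 epithelial and trophoblast genes none was called (median -0.24), while CDH1, epithelial cadherin, was 708, 1292 and 1110 and then 3377, 5641 and 1866 (log2 change 1.71, SE 0.40, limma adjusted p = 0.00842).

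When the fit held only the 6 CD43- samples, 54 genes were called, 35 higher and 19 lower, and 53 of them were also called in the fit of 33 samples; HBZ was the other. Of the 15 largest rises 9 and of the 15 largest falls 7 were among them, with HBA2, HBE1, MPO, DES, PRTG and CYP26A1. The remaining genes called higher were led by ERICH3 (0, 1 and 1, then 32, 36 and 20), the olfactory-family receptor OR51E2, UPK3B, a uroplakin also found in mesothelium (99, 88 and 160, then 1710, 2804 and 845), and SLC7A4. DLK1, a non-canonical Notch ligand, went from 222, 270 and 289 to 1580, 4114 and 2774, SMOC2 from 78, 107 and 158 to 824, 1951 and 786, and GPNMB from 32, 54 and 46 to 490, 610 and 384. The endothelin receptor EDNRA was 56, 73 and 43 and then 316, 289 and 474, and the neurotrophin receptor NGFR 107, 138 and 72 and then 434, 614 and 556. AC009022.1, AC079612.1, RP11-69I8.3, ANKK1, LY6H, PRCD, DNM3OS, CPNE7, EPS8, CYGB, ZFHX4 and BCL11A were the rest; AC009022.1 was listed at 0 on day 6, and the log2 changes of the others ran from 2.26 for BCL11A to 3.77 for ANKK1.

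The remaining genes called lower in the 6 samples were GLP1R, the glucagon-like peptide 1 receptor (40, 24 and 11, then listed at 0), CPLX2, a complexin of synaptic vesicles (43, 51 and 56, then 3, 2 and 2), CLVS2, PGA5, RYR3 (166, 146 and 101, then 22, 14 and 26), the transporter ABCC3, CNTNAP2, AKR1C2, ITLN2 and NEFH, the heavy neurofilament (634, 570 and 332, then 117, 92 and 96). CNTNAP2, a neurexin-family adhesion protein, was 544, 993 and 1215 and then 169, 142 and 142.

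The step of the CD43- cells was set beside that of the CD43+ cells between the same days, which shares no sample with it. In CD43+ cells 704 genes were called higher (3.56%) and 786 lower (3.97%). Of the 217 genes called higher in CD43- cells 40 were also called higher in CD43+ cells, 18.4% of the former and 5.68% of the latter, and of the 130 called lower 33 were, 25.4% and 4.20%. The difference of the changes was called, at the same thresholds, for 1463 genes (7.39%). It was called for 108 of the 217 genes called higher, 103 of them with the more positive change in CD43- cells. Of the 130 called lower it was called for 49, 48 of them with the more negative change in CD43- cells. The genes were chosen for their change in CD43- cells, which is part of the difference, so these counts and directions are tilted.

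TMEM151A was 4 to 6 in day 6 CD43+ cells and 3 to 6 on day 9, so the changes differed by 6.001 on the log2 scale (SE 0.73, limma adjusted p = 1.87e-06). For SERPINE3, at 0, 1 and 0 and then 6, 4 and 6 in CD43+ cells, the difference was 5.82 (SE 0.82, limma adjusted p = 1.33e-05). PTPRC, KLF1, MPO, SLC4A1 and MX1 gave differences in the other direction. CDH5 and KDR, which overlapped between the days in CD43- cells, fell in CD43+ cells, from 5644, 4481 and 6144 to 440, 457 and 584 and from 15842, 15842 and 22812 to 2974, 2484 and 5188, and the difference of the changes was 2.90 (SE 0.52, limma adjusted p = 0.000261) and 2.12 (SE 0.50, limma adjusted p = 0.00371). COL8A2, DLK1 and PRTG were called in the same direction in both populations, and the differences of their changes, 0.31 (SE 0.59), 0.08 (SE 0.69) and 0.86 (SE 0.52), were not called.

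**Figure D3:**
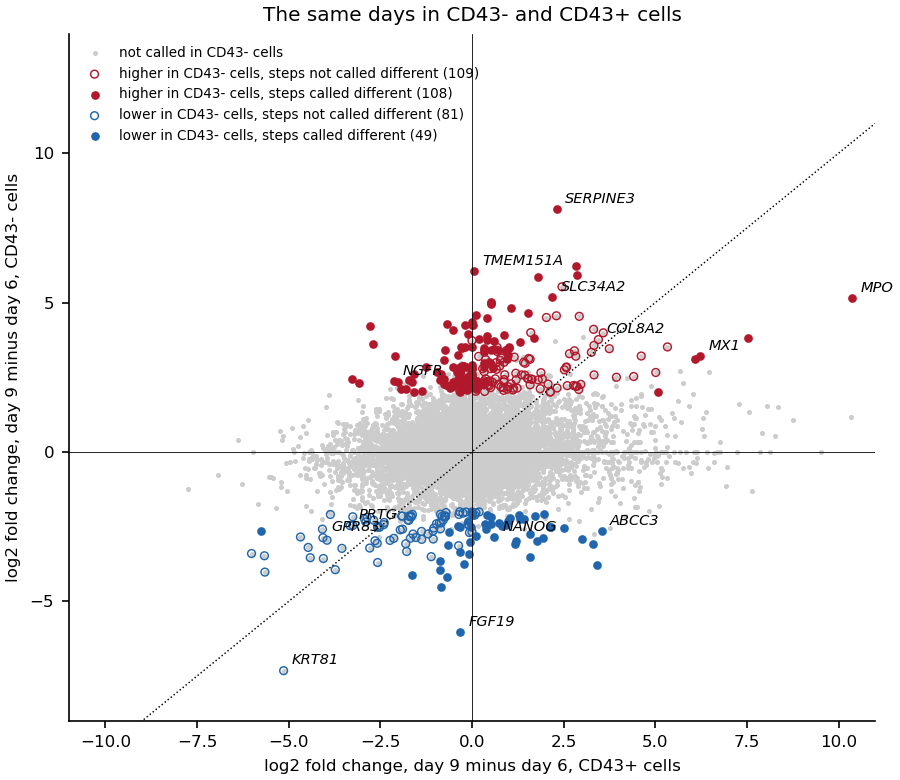
Log2 change from day 6 to day 9 of each gene in CD43+ cells (x axis) and CD43- cells (y axis); red and blue are the genes called higher and lower in CD43- cells, filled where the difference of the changes was called, and the dotted line marks equal change. Of the genes called higher 108 are filled, and of those called lower 49. These genes were chosen for their change in CD43- cells, which is part of the difference.

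Over the whole culture, the rising and falling genes followed different courses. SERPINE3 and EGFL6 were at most 12 and 20 in the unsorted samples of days 0 to 4, and 1918 and 5799 on average in day 12 CD43- cells. DLK1 continued to a mean of 24901 in CD43- cells of day 12. NANOG was 2574 to 2913 and POU5F1 25776 to 28960 on day 0, so that both were far below these levels by day 6. MX1 was 78, 78 and 66 in the day 0 embryoid bodies, 8, 10 and 4 on day 4 and 1118, 1796 and 1256 in the day 16 CD43- cells, so its mean CD43- level on day 6 lay between those of days 4 and 9.

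**Figure D4:**
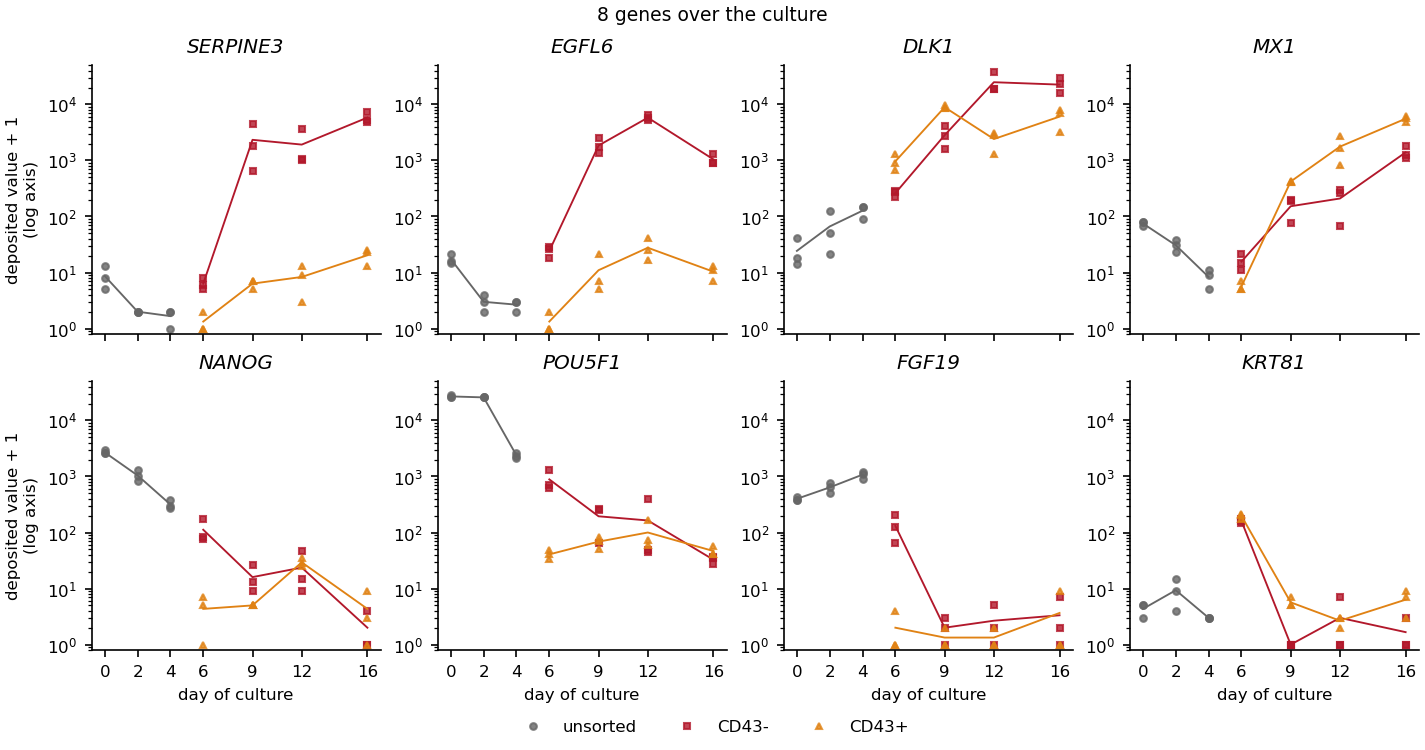
Deposited value + 1 (log axis) against day of culture for 8 genes, in unsorted samples (grey), CD43- cells (red) and CD43+ cells (orange). Points are samples and lines join the means. On day 16 the cells were sorted as CD43-CD45- and CD43+/CD45+ cells. KRT81 stands high only on day 6, in both sorted populations, while SERPINE3 and EGFL6 separate CD43- from CD43+ cells from day 9 on.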

How the data were processed

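RNA reads were mapped and quantified by the authors (Bowtie2, RSEM, hg38, Ensembl annotation), and the submitters' notes also name bcl2fastq and STAR 2.7. With EDASeq they normalized tag counts for GC content within and between samples and rounded them. The deposited values are therefore a normalized score, with the same sorted values in all 33 samples (sum 17856940, 1292 genes at 0), and no count test or depth is possible. Strand use is not given in the sources used here.

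A gene had to reach 10 in 3 or more samples, which 19788 of 20255 did and 467 did not. Values entered limma 3.58.1 (R 4.3.3) as log2(value + 1) (1 mean per population, 11 populations, eBayes with trend, Benjamini-Hochberg adjustment). The fit without a replicate block, the thresholds and the 32 gene lists were set as in the study's methods or from general knowledge. The genes, lists and tests were chosen with earlier results of these data known.

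Genes named by rule were 8 identity markers (SPN, PTPRC, CDH5, PECAM1, KDR, CD34, MCAM, PDGFRB), the 15 largest rises and falls among called genes with a mean of at least 100 on the higher day, no overlap of the days and no clone-based name, every called gene and the largest change of each list, and every gene called with 6 samples in the fit; other genes were chosen after their values were seen, and 1 of the 15 falls is not reported here. On the lower day 17 genes called higher and 12 called lower were at 0, where the fitted change depends on the pseudocount. Biotypes came from GENCODE 29 (19689 identifiers matched, 16324 protein-coding). Alternatives were the pseudocount, the filter, the scaling, the samples fitted, the replicate block, the variance model, the fold threshold and leaving out samples. All value columns matched a sample (0 did not).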

Additional observations from a re-analysis of the deposited data

Results flagged for a closer look

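The day 9 against day 6 change differed between CD43- and CD43+ cells for 1463 genes by the interaction term of the limma fit (adjusted p below 0.05 and more than 4-fold). Among the identity markers and the 15 largest rises and falls, the change in CD43- cells minus that in CD43+ cells, on the log2 scale, was -6.50 for PTPRC, 2.90 for CDH5, 2.12 for KDR and 2.32 for MCAM. PTPRC reached 634 to 749 in day 9 CD43+ cells, and MCAM fell there from 1800 to 2743 to between 470 and 512.

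Of the 15 largest rises, chosen for their change in CD43- cells and so tilted towards a positive difference, 12 had a called difference, against 7.39% of all genes. It was 5.82 for SERPINE3, 3.39 for EGFL6, 6.001 for TMEM151A, 3.05 for SECTM1, 4.05 for PTGDS, 3.00 for SLC34A2, 4.50 for CYP2W1, 3.76 for KRT24, 3.10 for CARNS1, 4.97 for SLC5A12, 4.24 for LRRN3 and 4.46 for SPHKAP. Of the 15 largest falls, chosen likewise and so tilted towards a negative difference, 5 had a called difference. It was -5.69 for FGF19, -3.50 for GAD1, -3.32 for LEFTY2, -3.46 for NANOG and -2.91 for APOA2. FGF19, LEFTY2, NANOG and APOA2 were at most 29 in the day 6 CD43+ cells, while GAD1 was higher in CD43+ than in CD43- cells on both days.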

How the results depend on the processing

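Of 347 genes called (217 higher, 130 lower; 1463 for the difference from CD43+ cells), a pseudocount of 10 left 153 (107 and 46; 869), of which 143 were shared, a fit of the 6 samples 54 (35 and 19), the same fit on the same genes 12 (8 and 4), and the 24 sorted samples 85 lower. A fold change above 2 gave 747 (448 and 299; 2476), and no fold threshold 1315 (737 and 578; 3606). Leaving out 1 sample gave 302 to 362 (180 to 221 higher, 98 to 155 lower; 1367 to 1418), and 74 of 105 named called genes stayed called in each of these fits. Leaving out day 9 replicate 2 lost 18 of them and day 6 replicate 2 lost 14. Directions turned for CD34 (range without 1 sample -0.61 to 0.49) without day 6 replicate 1 (0.49) or day 9 replicate 2 (0.20), CDH5 (-1.11 to 0.043) without day 6 replicate 1 (0.043), MCAM (-0.41 to 0.61) without day 6 replicate 3 (-0.41), day 9 replicate 3 (-0.078) or day 6 replicate 3 and day 9 replicate 2 (-0.069), and PECAM1 (-0.22 to 0.77) without day 6 replicate 3 (-0.22) or day 9 replicate 1 (-0.0071). Same-numbered samples correlated at 0.181, -0.319 and -0.216 in their deviations from the day means. With 3 samples a day, these values cannot decide whether the numbers pair the samples. With a replicate block 347 genes were called in the fit of 33 samples and 0 in that of 6 (2004 at an unadjusted limma p under 0.05). Protein-coding genes only (303), the 6-sample fit on the same genes and leaving out both samples that stood apart were chosen after seeing the data. The cause of these differences was not tested. Median-of-ratios scaling moved the median of all genes from -0.03 to 0.00. Depth is unknown, and 3 samples a day limit the precision.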

Other observations

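The genes called higher did not share 1 pattern over the day 9 samples: replicate 2 was highest for 123 of the 217 and lowest for 57. Genes of the latter kind, chosen after their values were seen, included PTX3, a secreted pentraxin (8, 10 and 8 on day 6; 202, 54 and 170 on day 9), FAP, a serine protease of activated fibroblasts (8, 12 and 5; 104, 39 and 193), LAMA2, a laminin chain of muscle basement membrane (52, 48 and 37; 613, 202 and 976), and NPR3, the natriuretic peptide clearance receptor (560, 228 and 136; 3419, 1423 and 3010). Their log2 changes were 3.69 for PTX3 (SE 0.46), 3.39 for FAP (SE 0.80), 3.42 for LAMA2 (SE 0.44) and 3.23 for NPR3 (SE 0.50), and the days did not overlap for any of the 4.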
